A study of Drosophila melanogaster with 3 samples.

Results

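The regions described here are the binding peaks of the Drosophila melanogaster transcription factor Pointed that lie in the pericentromeric part of the long chromosome arms. They were chosen by position alone: a peak belonged if its midpoint lay on dm6 arm 2L beyond 22 Mb, 3L beyond 23 Mb, 3R before 4.2 Mb or X beyond 22 Mb. Peaks of 4 deposited lists (1 per replicate and 1 from the pooled replicates) that overlapped by at least 1 bp were merged into 1 region. Peaks inside and outside these limits were merged separately. This gave 1058 members, of 55001 regions in the whole series, in windows that hold 12.2 Mb of sequence other than N. The other 43307 regions of the same 4 arms, on 94.9 Mb, served as the reference and are called the rest.

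ChIP-seq, in which antibody-bound chromatin is purified and its DNA sequenced, was done on mixed-sex whole embryos of 0 to 24 hours of the strain pnt-MiMIC-GFP, with an antibody to GFP. This strain carries an artificial eGFP exon within a pnt intron, so that Pointed is made as a GFP fusion. There was 1 group, pnt-eGFP, of 3 biological replicates from the same fly line, so the spread below is between these 3 chromatin samples and no second condition was compared. The antibody field of the labels reads pnt while their description says anti-GFP. Whole embryos mix many cell types, and fewer cells bound at a site and less binding per cell cannot be told apart.

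Pointed is an ETS-domain factor that acts in the nucleus at the end of the EGF receptor and MAP kinase pathway, and ETS proteins contact DNA around a GGAA core. Pericentromeric heterochromatin is the compact chromatin that flanks centromeres, marked by methylated histone H3 lysine 9 and bound by the protein HP1. It is poor in genes and rich in transposable elements and satellite repeats. Some essential fly genes lie within it, often with very long introns full of repeats, and are transcribed there. No chromatin mark was measured here, so the windows stand for heterochromatin by position, and their content of repeats is given below.

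The sequences shown are the centres of the 5 members that the authors' optimal list kept and of a pair of promoter members found in all 3 replicate lists, because the named results turn on them. Each was in the optimal list or in all 3 replicate lists, so they are not typical members. In all, 80.7% of members were in 1 replicate list and 8.32% were near a transcription start. Presence in all 3 lists need not be strong support: the vtd member ranked 23076 of 30000 in replicate 2. Each line gives the plus strand of dm6 from 100 bases before to 100 bases after the member's midpoint. Capitals mark GGAA on either strand, except in the 3R sequence, where they mark a 10-base word that occurs 11 times.
chrX:22833623-22833823, 140 bp from the mir-2491 start: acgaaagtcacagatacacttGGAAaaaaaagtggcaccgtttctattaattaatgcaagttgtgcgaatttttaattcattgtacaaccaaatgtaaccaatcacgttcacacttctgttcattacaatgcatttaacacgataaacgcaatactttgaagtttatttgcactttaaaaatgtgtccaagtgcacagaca
chr2L:23332372-23332572, intergenic: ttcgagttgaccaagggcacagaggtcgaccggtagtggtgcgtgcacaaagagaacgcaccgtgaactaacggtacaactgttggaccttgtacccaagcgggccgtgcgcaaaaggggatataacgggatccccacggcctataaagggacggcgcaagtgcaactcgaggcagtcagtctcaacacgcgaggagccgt
chr3R:4052912-4053112, intergenic: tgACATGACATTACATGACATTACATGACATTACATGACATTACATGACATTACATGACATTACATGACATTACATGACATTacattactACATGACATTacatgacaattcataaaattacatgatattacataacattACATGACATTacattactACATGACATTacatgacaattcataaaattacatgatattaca
chrX:22491261-22491461, at l(1)G0196: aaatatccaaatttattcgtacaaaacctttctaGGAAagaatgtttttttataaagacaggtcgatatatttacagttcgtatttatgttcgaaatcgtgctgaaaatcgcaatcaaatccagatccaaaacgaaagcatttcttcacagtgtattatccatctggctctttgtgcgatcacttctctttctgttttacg
chrX:23004936-23005136, at stnA: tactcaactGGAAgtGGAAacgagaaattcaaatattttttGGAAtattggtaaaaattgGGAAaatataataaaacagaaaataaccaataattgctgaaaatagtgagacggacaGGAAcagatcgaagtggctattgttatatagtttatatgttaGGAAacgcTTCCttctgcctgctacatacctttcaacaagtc
chr2L:22247691-22247891, at RpL21: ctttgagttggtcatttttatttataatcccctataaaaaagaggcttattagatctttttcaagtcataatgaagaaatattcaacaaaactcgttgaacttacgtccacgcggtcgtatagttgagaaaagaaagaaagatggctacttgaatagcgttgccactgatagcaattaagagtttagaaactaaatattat
chr3L:27136278-27136478, at vtd: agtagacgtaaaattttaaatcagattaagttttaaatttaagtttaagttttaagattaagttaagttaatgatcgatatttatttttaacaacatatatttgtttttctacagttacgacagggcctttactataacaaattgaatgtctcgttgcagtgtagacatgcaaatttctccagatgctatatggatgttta

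The stnA sequence held 7 copies of GGAA, the mir-2491 and l(1)G0196 sequences 1 each, and the other 4 none. The sequences also differed in base composition, from 26.4% G and C at vtd and in the 3R repeat to 57.7% in the intergenic 2L member. GGAA is a short word that 82.5% of such windows at all members contained, against 79.9% at regions of the rest. It was found in 78.7% of evenly spaced windows of the same length in the pericentromeric sequence, against 80.3% of those along the rest of the arms. The search for this core was added after the values were known.

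Pericentromeric sequence held few peaks in every replicate. Replicate 1 had 36.8 peaks per Mb in the windows and 251.5 per Mb in the rest, a ratio of 0.146. Replicate 2 had 65.7 per Mb in the windows and 248.7 in the rest, a ratio of 0.264. Replicate 3 had 8.63 per Mb in the windows and 251.0 in the rest, a ratio of 0.0344. Each relaxed list holds 30000 peaks, most of them on the rest of the arms, so the near-equal densities there follow from the list length. In the windows the replicates spanned a wide range, with replicate 2 the densest and replicate 3 the sparsest. The mean log2 ratio was -3.18 ± 1.51 (SD, n = 3), a geometric mean ratio of 0.110, and all 3 replicates had fewer peaks in the windows. An exact two-sided sign-flip permutation test over the 3 replicates gave p = 0.25, the smallest value that 3 replicates allow, so the test cannot pass 0.05.

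In whole numbers, 448 of 30000 relaxed peaks of replicate 1 lay in the windows, 799 of 30000 of replicate 2 and 105 of 30000 of replicate 3. Relaxed lists deliberately include weak peaks and background, so that replicates can be compared. The shares were 1.49% (95% exact Clopper-Pearson interval 1.36 to 1.64), 2.66% (2.48 to 2.85) and 0.350% (0.286 to 0.424). These intervals do not overlap, and they cover counting error only. The pooled list had 162 of 23148 peaks in the windows, or 0.700%. Read depths are not given with the lists, so whether depth moves with this order was not tested. On chromosome 4, the small chromosome that is itself largely heterochromatic, the order was different: replicate 3 had 172.0 peaks per Mb, replicate 1 had 46.6 and replicate 2 had 24.8.

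The gap was wider among strong peaks in each of the 3 replicates. The 3646 peaks of highest signal in each replicate, a number equal to the length of the optimal list, included 15 window peaks in replicate 1, 21 in replicate 2 and 2 in replicate 3. The mean log2 ratio of densities in the windows over the rest was then -5.47 ± 1.81 (SD, n = 3), a ratio of 0.0226, with the same exact permutation p of 0.25. Within a list, peaks were ranked by their deposited signal, whose scale the sources do not state. The median window peak stood at percentile 35.7 in replicate 1, 37.1 in replicate 2 and 44.8 in replicate 3, against 50.1, 50.6 and 49.99 for the rest. The difference averaged -11.0 ± 5.04 percentile points (SD, n = 3; exact permutation p = 0.25) and was negative in all 3 replicates.

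By the deposited q-value, the caller's own measure of confidence in a peak, 6.25% of window peaks in replicate 1 were at or below 0.05, against 17.0% in the rest. The same shares were 2.25% against 11.9% in replicate 2 and 24.8% against 32.1% in replicate 3. Peak widths carry no information here, because every window peak of a list had the same width, 364 bp in replicate 1, 356 bp in replicate 2 and 416 bp in replicate 3. These were also the median widths in the rest, so the width difference was 0 (exact permutation p = 1).

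**Figure D1:**
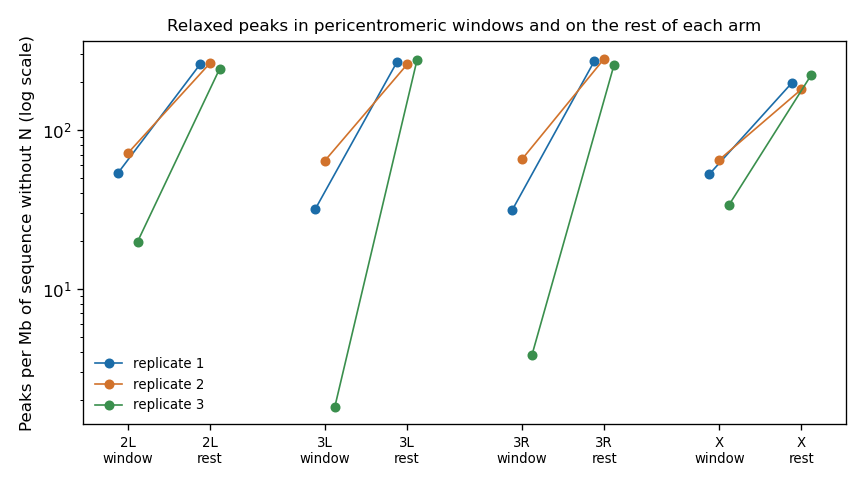
Relaxed peaks per Mb of sequence without N (log axis) in the pericentromeric window and on the rest of arms 2L, 3L, 3R and X, 1 line per replicate. Every line climbs from window to rest, and replicate 3 lies lowest in every window, down to 1.80 peaks per Mb on 3L.

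The arms differed most in replicate 3 and less in replicate 1. In the 2L window replicates 1, 2 and 3 had 81, 108 and 30 peaks, and in the X window 78, 96 and 50. In the larger 3L window they had 158, 321 and 9, and in the 3R window 131, 274 and 16. The plot of density by arm shows replicate 3 at 19.8 and 33.9 peaks per Mb in the 2L and X windows but at 1.80 and 3.83 in the 3L and 3R windows. Replicate 1 had 53.5 and 52.8 per Mb in the 2L and X windows, against 31.6 and 31.4 in the 3L and 3R windows. Replicate 2 was nearly level across the 4 windows, from 64.2 to 71.4 per Mb. The 3L and 3R windows are 5.11 and 4.2 Mb long, against 1.51 and 1.54 Mb on 2L and X. They thus reach further inward, and arm and depth were not separated here. Of the 1058 members, 165 lay on 2L, 408 on 3L, 340 on 3R and 145 on X.

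**Figure D2:**
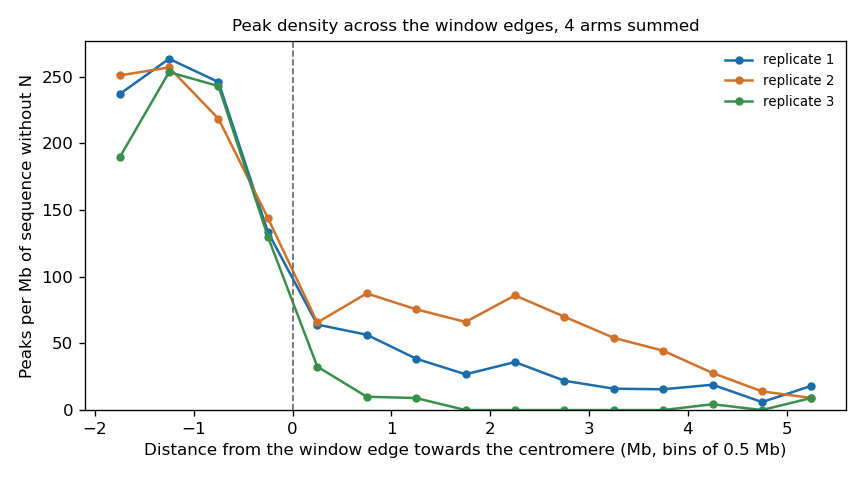
Relaxed peaks per Mb of sequence without N in bins of 0.5 Mb, by distance from the window edge towards the centromere, summed over 4 arms, 1 line per replicate; the dashed line is the edge. All 3 replicates stand at 130.0 to 144.0 per Mb just outside the edge and drop inside it, replicate 3 to 0 from 1.5 to 4 Mb.

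The fall in density ran over several bins around the edge. In the 0.5 Mb just outside, the 3 replicates had 133.5, 144.0 and 130.0 peaks per Mb. In the first 0.5 Mb inside they had 64.1, 65.7 and 32.6. From 1.5 to 4 Mb inside, replicate 1 had 116 peaks (23.5 per Mb), replicate 2 had 319 (64.6 per Mb) and replicate 3 had 0 of its 30000, which allows at most 0.607 per Mb. Replicate 3 therefore had 101 of its 105 window peaks within 1.5 Mb of an edge, against 314 of 448 for replicate 1 and 453 of 799 for replicate 2. Beyond 4 Mb, sequence that exists only in the 3L and 3R windows, replicate 3 had 4 peaks, which lay in 3 members, all on 3L and all within 500 bp of a transcription start site (TSS). Their nearest starts were those of vtd, a snoRNA inside RpL15, and l(3)80Fj.

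The edges of the windows are positions, not features of the data. On 2L the nearest region inside, 3563 bp from the edge, had a signal of 18.5 in replicate 1 alone, and the nearest outside, at 364 bp, had 13.0 in replicate 1 alone. On 3R the nearest inside, at 1382 bp, was in replicates 2 and 3, and the nearest outside, at 14258 bp, was in all 3 with a pooled signal of 285.1. On 3L the nearest inside and outside, at 242 and 186 bp, overlapped each other and had the same replicate 2 signal, 13.7. Each was in replicates 2 and 3. Because peaks inside and outside were merged separately, this cluster counts on both sides of the edge. Merging before taking midpoints gave 1057 members. On X the nearest inside was 373400 bp from the edge and the nearest outside 332308 bp, because a peak-free stretch of 705.2 kb spans that edge.

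Few members were found in more than 1 replicate. All 3 lists overlapped 21 members, or 1.98% (interval 1.23 to 3.02), against 5997 regions or 13.8% of the rest, where the whole series had 13.4%. The sparsest list caps this count: replicate 3 overlapped only 91 of the 1058 members, against 20298 of the 43307 regions in the rest. The low share in all 3 lists is therefore not separate from the low number of window peaks in replicate 3. Another 181 members (17.1%) were in 2 lists, 854 (80.7%) in 1 list and 2 in the pooled list alone, against 22.9%, 62.7% and 0.589% of the rest. Replicate 2 alone held 584 members, 55.2% of all, against 23.5% of the rest. Replicate 1 alone held 231 members and replicate 3 alone 39. Of the 21 in all 3 lists, 12 lay on X, 4 on 2L, 4 on 3R and 1 on 3L, and all but the one on 3L were at most 1.17 Mb from a window edge.

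**Figure D3:**
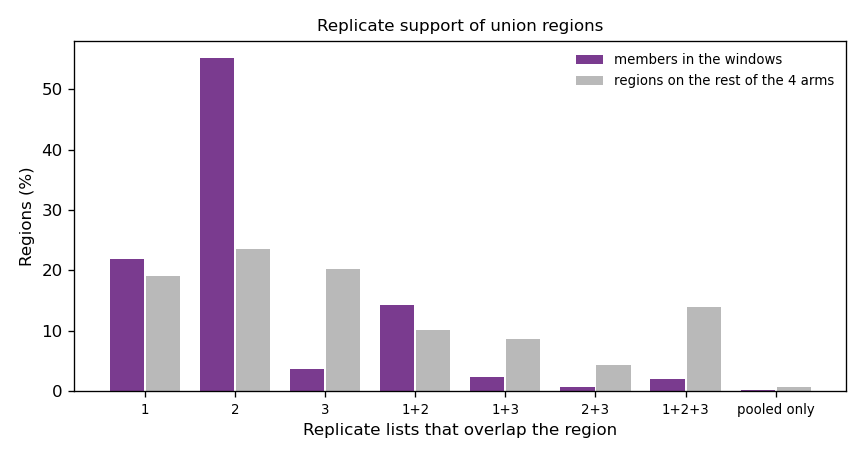
Percent of union regions overlapped by each combination of replicate lists, for the 1058 members in the windows and the 43307 regions on the rest of the 4 arms. Replicate 2 alone accounts for 55.2% of members, and all 3 replicates for 1.98%, against 13.8% of the rest.

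The replicates shared unequal parts of their window regions. Of the 427 members that replicate 1 overlapped, 40.0% (interval 35.4 to 44.9) were also in replicate 2, below the 46.4% in the rest. A much smaller share, 10.8%, was in replicate 3, against 43.6% in the rest. Of the 761 members of replicate 2, 22.5% were in replicate 1, against 46.2% in the rest, and 3.55% in replicate 3, against 35.0%. Seen from replicate 3, whose 91 members are few, 50.5% were also in replicate 1, against 47.8% in the rest, and 29.7% in replicate 2, against 38.6%. The last shares have wide intervals in members, 39.9 to 61.2 and 20.5 to 40.2, which include those of the rest. The median pooled signal was 70.7 over the 20 pooled members found in all 3 replicates, 41.2 over the 71 in replicates 1 and 2, and 35.0 over the 30 in replicate 2 alone. The pooled list was called from the same 3 alignments, so this order follows from how it was made and is not separate support.

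The optimal list, which the submitters derived by comparing the relaxed lists, kept 5 members, or 0.473% (interval 0.154 to 1.10). It kept 2887 regions or 6.67% of the rest, and 6.43% of all regions in the series. All 5 lay at most 1.33 Mb from a window edge, 3 on X, 1 on 2L and 1 on 3R. There was none among the 408 members on 3L.

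The strongest was chrX:22833515-22833930, with signals of 64.2, 74.4 and 44.3 in replicates 1, 2 and 3 and a pooled signal of 183.7. It ranked 1397th of 23148 in the pooled list, the best rank of any window peak there. Its midpoint lay 140 bp from the start of the microRNA gene mir-2491 and inside the spans of fog and CG42346. The gene fog encodes Folded gastrulation, a secreted protein that drives the apical constriction of cells at gastrulation. A second member in fog, at chrX:22837349-22837764, had 18.1 in replicate 1, none in replicate 2 and 62.6 in replicate 3, and a pooled signal of 90.9. The value of 62.6 was the highest window signal in replicate 3, and both members were within the first 0.84 Mb of the X window.

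The next was the GC-rich intergenic member chr2L:23332194-23332749, 8280 bp from the nearest start, that of CR42530. It had 68.7 in replicate 1 and 77.3 in replicate 2, the highest window signal of that replicate, and no peak in replicate 3. Its pooled signal was 133.4. This was the only one of the 5 that a replicate list lacked.

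The repeat printed above lies in chr3R:4052715-4053309, 24927 bp from the start of CG42402. It had 81.8 in replicate 1, the highest window signal there, 29.0 in replicate 2, 19.6 in replicate 3 and 132.8 in the pooled list. Among the 4 optimal members that all 3 replicates held, its signals were the furthest apart, with replicate 3 at rank 11542. Unique 31-base words, meaning words found at a single place in the assembly on either strand, made up 76.6% of it.

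Of the other optimal members, chrX:22490951-22491770 lay 234 bp from the start of l(1)G0196, with 36.3, 43.9 and 34.0 in replicates 1, 2 and 3 and 102.8 in the pooled list. The last, chrX:23004782-23005290, lay 388 bp from the start of stnA, with 31.6, 37.1 and 29.2 and a pooled signal of 94.0. The stoned locus makes stnA and stnB, needed for the recycling of synaptic vesicles, from 1 transcription unit. Signals of different lists may not share a scale, so ranks are the safer comparison. In replicates 1, 2 and 3 the l(1)G0196 member ranked 3190, 2210 and 4360, and the stnA member 3787, 2694 and 5690. Replicate 2 placed both highest and replicate 3 lowest.

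The 10 members of highest pooled signal held 4 more besides these 5 and the second member in fog. A member 156 bp from the start of lncRNA:CR45010, inside the fucosyltransferase gene FucTC, had 26.9, 39.7 and 14.6 in replicates 1, 2 and 3 and 82.0 in the pooled list. A member 5522 bp from lncRNA:CR43962 had 29.6, 30.5 and 22.1, and one 190 bp from asRNA:CR45009 had 22.9, 26.4 and 26.3. These 3 lay on X, all were in each replicate, and their pooled signals were from 80.8 to 82.5. On 3R, a member 44 bp from the start of CG41099 had 33.5 in replicate 1, 23.2 in replicate 2 and none in replicate 3, with 80.2 in the pooled list. Of the 10, 7 thus lay on X, 2 on 3R and 1 on 2L, and none on 3L.

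**Figure D4:**
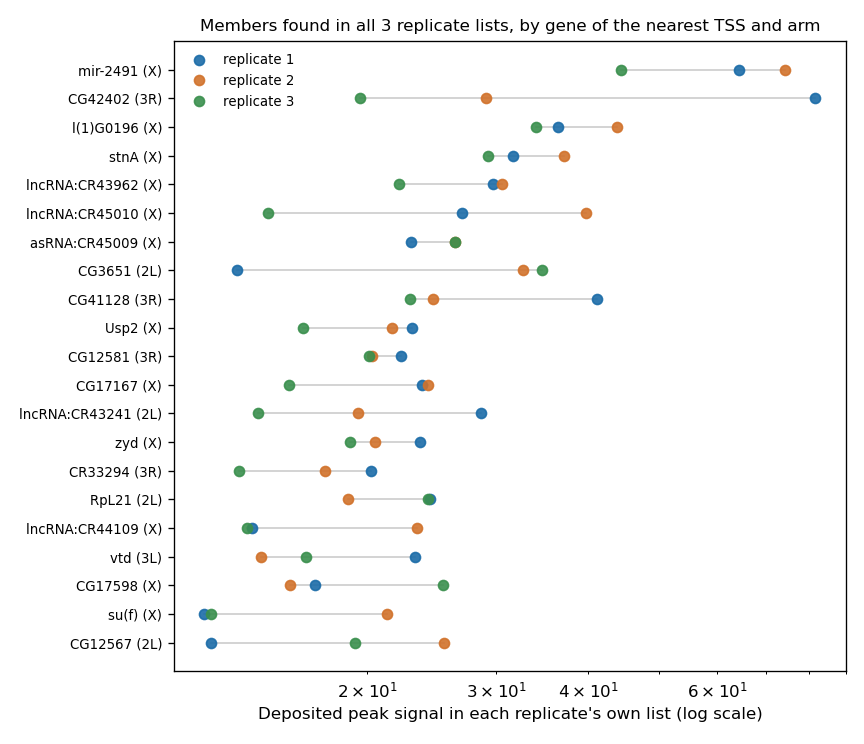
Deposited signal (log axis) in each replicate's own list for the 21 members found in all 3 replicate lists, named by the gene of the nearest TSS and the arm, ordered by pooled signal with the member absent from the pooled list last. The mir-2491 member is at 44.3 or more in all 3 replicates, and no other member is above 43.9 in any replicate except that of CG42402, at 81.8 in replicate 1.

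Of the 21 members in all 3 replicates, 14 (66.7%, interval 43.0 to 85.4) had their midpoint within 500 bp of a TSS, against 34.6% of such regions in the rest. The share was 17.1% (31 of 181) for members in 2 replicates and 5.04% (43 of 854) for those in 1, against 21.8% and 16.9% of the rest. The median distance to a TSS was 275 bp for members in all 3 replicates, against 24865 bp for all members and 2137 bp for the rest. The window members with full support thus mostly lay near an annotated transcript start, while most of the others were far from any. Every member in all 3 lists is also a member of replicate 3. Of that list's window peaks 51.4% lay within 500 bp of a TSS, against 14.7% in replicate 1 and 6.01% in replicate 2. The interval of 43.0 to 85.4 includes 51.4%, so this share is not separate from that of replicate 3. Starts of all annotated transcripts were counted, including those of microRNA and snoRNA genes, such as mir-2491 at the strongest member. By class, 51.5% of all members lay in introns, 32.3% between genes, 8.32% near a TSS and 6.05% in coding sequence. In the rest these were 35.8%, 20.4%, 20.4% and 19.5%.

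The values of some of these members, by gene, were as follows. The member at RpL21, a protein of the large ribosomal subunit, lay 42 bp from the start and had signals of 24.3, 18.8 and 24.2. At vtd, which encodes the Rad21 subunit of cohesin, the member had 23.2, 14.3 and 16.5, lay 147 bp from the start and was the only one of the 21 on 3L, 4.14 Mb inside the window. At su(f), a factor of mRNA 3' end formation, the signals were 12.0, 21.3 and 12.2. The member at Usp2, a ubiquitin protease, had 23.01, 21.6 and 16.3 and lay 70 bp from the start. At CG12567 the values were 12.2, 25.4 and 19.2 at 31 bp, and this was the only one of the 21 absent from the pooled list. The intronic member in zyd, a gene for a sodium, potassium and calcium exchanger of glia, had 23.6, 20.5 and 18.9. Some of these values stood low in their own list. By signal percentile, su(f) was at 9.74 in replicate 1 and 14.5 in replicate 3. CG12567 was at 13.7 in replicate 1 and vtd at 23.1 in replicate 2. RpL21, in contrast, was at 81.6, 63.9 and 73.5 in replicates 1, 2 and 3.

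The share of each list's own peaks near a TSS did not move the same way in all replicates. It was 14.7% in the windows and 22.95% in the rest for replicate 1, and 6.01% in the windows and 17.3% in the rest for replicate 2. For replicate 3 it was 51.4% in the windows and 33.3% in the rest. The difference averaged -0.473 ± 16.1 percentage points (SD, n = 3; exact two-sided sign-flip permutation p = 1), so it is not a difference beyond the spread between replicates, and its sign turned under several settings. The counts themselves were alike: 66, 48 and 54 window peaks near a TSS in replicates 1, 2 and 3. It was the number of other window peaks that set the replicates apart, 382, 751 and 51.

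Starts are sparse in the windows, at 27.3 per Mb against 195.1 in the rest, so 2.08% of window sequence lay within 500 bp of one, against 14.8% of the rest. Relative to that share of sequence, window peaks were near a TSS 7.08 times as often in replicate 1, 2.89 times in replicate 2 and 24.7 times in replicate 3. In the rest the same ratios were 1.55, 1.17 and 2.25. The ratio was higher in the windows than in the rest in all 3 replicates, which was noticed after the values were seen and was not tested. These ratios count all sequence, and unique words made up 39.5% of it in the windows, against 94.7% in the rest. The share of unique sequence near a TSS was not computed, so whether the ratios keep this order in unique sequence was not tested.

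At the level of genes, the windows held 146 protein-coding genes with a median span of 4263 bp, against 2167 bp in the rest. A member lay in the span or within 2 kb of 103 of them (70.5%, interval 62.4 to 77.8), against 95.7% of genes in the rest and 95.4% over the 4 arms. A member found in all 3 replicates did so for 23 (15.8%, interval 10.3 to 22.7), against 45.4% in the rest and 45% over the 4 arms. An optimal peak did so for 5 (3.42%, interval 1.12 to 7.81), against 30.4% in the rest and 30.1% over the 4 arms. Neighbouring genes can share a member, as stnA and stnB do. Many of the window genes without a member form a run on X, from CG40813 to CG41562 at chrX:22143058-22252414, most with a span of 876 bp. This run lies in a peak-free stretch with 10.8% unique 31-base words (words found once in the assembly). The shares and intervals count each gene of the run separately, so they include this single locus many times.

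Long genes collected many members from replicates 1 and 2 and few from replicate 3. Myo81F, an unconventional myosin gene of 1965857 bp on 3R, held 164 members in its span and 166 in the span or within 2 kb. Of the 166, replicate 1 overlapped 43, replicate 2 overlapped 140 and replicate 3 none. Pzl, which encodes a Piezo-like channel, held 70, lovit, which encodes a transporter of synaptic vesicles, held 51, and Snap25, a protein of vesicle fusion, held 32. None of these had a member in replicate 3. CG40006, CG40470, l(3)80Fg and AGO3, an Argonaute protein of the piRNA pathway, held 27, 24, 21 and 17, also with none in replicate 3. CG42748 on 2L and CG42346 on X were different: CG42748 held 16 members in its span, with 14 of those in or within 2 kb in replicate 3, and CG42346 held 15, with 7. Per length, these 10 genes ran from 8.34 members per 100 kb of span at Myo81F to 45.7 at CG42748. Pzl had 9.87, l(3)80Fg 9.74, lovit 11.8 and Snap25 14.2. The windows as a whole held 1058 members on 12.2 Mb. The genes were picked by their count of members, which favours long spans, so the counts are not read as a trait of these genes.

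A list of 18 genes known to lie in or near heterochromatin put 17 in the windows; dbr is annotated elsewhere on 2L. Of the 17, 16 had a member in or within 2 kb, 4 had one in all 3 replicates (vtd, su(f), stnA and stnB) and 2 had an optimal peak (stnA and stnB, the same one). Over all 146 window genes the shares were 70.5%, 15.8% and 3.42%, and over the genes of the 4 arms 95.4%, 45% and 30.1%. The list was chosen by name and these counts are not read as particular to it. Only cta, a G protein alpha subunit that acts downstream of Fog, had none. At lt, which encodes the Vps41 protein of lysosomal transport, a member 8 bp from the start had 21.7 in replicate 1, 14.9 in replicate 2 and none in replicate 3. RpL5 had 40.1, 33.9 and none at 10 bp from its start, and Dbp80, an RNA helicase, 35.2, 21.99 and none at 82 bp. These 3 promoter members were in replicates 1 and 2 and not in replicate 3, and at lt the value of replicate 2 stood below the median of its list.

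The remaining genes of that list were more mixed. The ribosomal gene RpL15 had a member inside it with 28.4 in replicate 3 alone and another 108 bp from its start with 33.4 in replicate 1 alone. The translation factor gene eIF4B had 15.8 in replicate 1 alone. At spok, an enzyme of ecdysone synthesis, 6 members lay in the span, all of replicate 2 alone, and at nvd, which acts in the same pathway, 12 lay in the span or within 2 kb, of which replicate 2 overlapped 12 and replicate 1 overlapped 1. Parp1, a poly(ADP-ribose) polymerase, held 15 members in its span, its strongest with 16.1 in replicate 1 and 33.5 in replicate 2. Beside Set1, a histone H3 lysine 4 methyltransferase, a member 63 bp from the start of the Mediator gene MED21 had 69.6 in replicate 1, 46.9 in replicate 2 and none in replicate 3.

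That MED21 member was absent from the pooled list despite its rank of 1291 in replicate 1 and 2006 in replicate 2. It was 1 of 7 members that at least 2 replicates placed among their top 3646 peaks. The other two absent from the pooled list were at the starts of l(3)80Fg, with 59.4 in replicate 1 and 51.0 in replicate 2, and of alpha-Cat, a cadherin-binding adhesion protein, with 37.7 and 36.3. Thus 3 of 7 such members were missing from the pooled list (42.9%, interval 9.90 to 81.6), against 0 of 2583 such regions in the rest, which allows up to 0.143%. With 1 top list as the requirement, 5 of 29 members were missing (17.2%, interval 5.85 to 35.8), against 30 of 4344 in the rest (0.691%, interval 0.466 to 0.984). All 5 lay in the 3L window, 4 of them within 500 bp of a TSS, and these 4 consisted of unique words alone. These members were picked out after their values were seen.

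**Figure D5:**
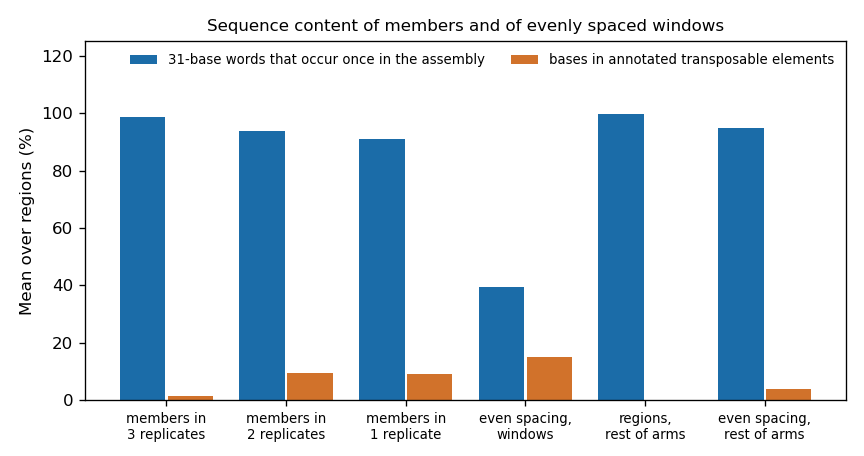
Mean percent of 31-base words that occur at a single place in the assembly and of bases in annotated transposable elements, over the whole of each member or region and over evenly spaced windows of the length printed above. Members have 91.0% to 98.5% unique words, against 39.6% in evenly spaced pericentromeric windows and 99.8% in regions of the rest.

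On average, members were richer in unique sequence than the windows around them. Unique 31-base words made up 91.5% of the average member, against 99.8% of regions in the rest. In evenly spaced windows the same mean was 39.6% in pericentromeric sequence, against 94.7% along the rest of the arms. Among members, the mean was 98.5% for those in all 3 replicates, 98.7% for those of replicate 3, 92.3% for those of replicate 1 and 91.2% for those of replicate 2. The mean does not hold for each member: 752 of 1058 (71.1%) had at least 90% unique words, against 99.4% of regions in the rest and 23.6% of evenly spaced pericentromeric windows. How the authors treated reads that map to several places is not given in the sources used here, and its part in the low density was not tested.

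Counted per Mb of unique sequence, of which the windows had 4.80 Mb and the rest 89.8 Mb, the density gap was smaller in every replicate. Replicate 1 then had 93.3 peaks per Mb in the windows and 265.6 in the rest, a ratio of 0.351. Replicate 2 had 166.4 and 262.6, a ratio of 0.634, and replicate 3 had 21.9 and 265.0, a ratio of 0.0825. The mean log2 ratio was -1.92 ± 1.51 (SD, n = 3; exact permutation p = 0.25), still negative in all 3. This scaling was added after the data were seen.

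Transposable elements covered 9.11% of the average member, against 0.251% of regions in the rest, and 15.2% of evenly spaced pericentromeric windows, against 4.01% along the rest. At least 50% of the bases were in annotated elements in 96 members (9.07%), against 74 of 43307 regions in the rest (0.171%). The families with most member midpoints were INE-1 with 17, gypsy8 with 13, Cr1a with 12 and HMS-Beagle with 6. gypsy8, a retrotransposon with long terminal repeats, supplied 11.3% of the element bases in members and 1.51% of those in the windows. The families 1360 and roo were common in the windows, with 7.57% and 3.28% of element bases, but held 2 and 0 member midpoints. No test was made of these shares, since members of a family share sequence.

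The shares of windows with short sequence patterns are descriptions, with no test. The core CCGGAA, an ETS core with a further CC, was in 5.58% of member windows (interval 4.27 to 7.13), against 7.16% in the rest. In evenly spaced windows it was in 4.67% of pericentromeric ones, against 6.41% along the rest of the arms. ACCGGAAG was in 5 members (0.473%), against 0.420% in the rest. CAGCTG was in 6.33% of members (interval 4.94 to 7.97), against 11.6% in the rest, with 4.70% and 8.91% in the corresponding evenly spaced windows. TATCGATA was in 1.04% of members, against 0.901%, and GAGAG in 25.1%, against 24.0%. Both strands were searched, every ACCGGAAG is also counted as CCGGAA and as GGAA, and a match is a description of letters, not a site. The satellite unit AAGAG in tandem was in 0 of 1058 members, which allows up to 0.348%, and AATAT in tandem was in 3. A further satellite word of 10 bases was also in 0 of 1058.

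Stretches with no peak in any list were long in the windows. There were 14 of at least 100 kb with their midpoint in the windows, against 2 in the rest, and 1 of these 2 was chr2L:21397626-21558019, outside the 2L window but near it. The longest was chrX:21667871-22373117, with 10.8% unique words, and the next chr3R:1-443835, with 8.83%. The 14 held 4.68% to 17.6% unique words, whereas the other one in the rest, chrX:2795084-2925273, held 87.8%.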

How the data were processed

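Peak lists of 3 ChIP-seq replicates, deposited as narrowPeak files for dm6 and for dm3, were used. Per the labels and the file notes, the authors called each replicate's relaxed list from its own alignment against 1 control, a pooled list from the 3 alignments, and an optimal list from the relaxed lists. Aligner, peak caller, versions and thresholds: not given in the sources used here. Signal per peak, as deposited, has no stated scale, so it was ranked within lists. The deposited −log10 q-value was compared with 0.05. Read depth is unknown, and intervals cover counting error only.

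From these, members were found by midpoint, merged at 1 bp overlap and annotated with Ensembl release 115 genes (a TSS within 500 bp) and with RefSeq GCF_000001215.4 sequence, transposable elements and masking; chromosome names and lengths were checked. Densities used sequence without N. Replicates were compared by an exact sign-flip permutation test (Python 3.11.15, numpy 2.4.6, scipy 1.17.1), checked on simulated lists. The genes named are those of optimal members, of the 10 strongest pooled members, of a list of heterochromatic genes, and the 10 with most members; others are said to be chosen after their values were seen or come from members in all 3 replicates. Parp was matched to Parp1 by its RefSeq synonym. The members and lists were chosen with earlier results of these data known.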

Additional observations from a re-analysis of the deposited data

Results flagged for a closer look

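The dm3 lists, which no comparison above used, also held peaks on the separate heterochromatin scaffolds of 2L, 3L, 3R and X in that build. Their number was 155 in replicate 1, 382 in replicate 2, 17 in replicate 3 and 42 in the pooled list. Each is above the 3 counts that a count of 0 would allow, and no control sample was analysed here. Relaxed lists include background by design, so counts above 0 do not tell binding on these scaffolds from background. The order of the replicates was as in the dm6 windows, with replicate 2 highest and replicate 3 lowest. As shares of the lists these were 0.568% (95% exact Clopper-Pearson interval 0.483 to 0.665), 1.27% (1.15 to 1.41), 0.0567% (0.0330 to 0.0907) and 0.204% (0.147 to 0.276). The dm3 optimal list had 2 such peaks, 1 on the 3R scaffold with a signal of 132.5 and 1 on the 2L scaffold with 131.6.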

How the results depend on the processing

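Peak width, fixed within a list, is left out of these counts. Of 53 alternative values for the other 6 results, 42 kept their direction or, for shares, stayed within the counting interval, 5 moved and 6 turned round. The density ratios kept their sign in all alternatives run, and per Mb of unique sequence the mean log2 ratio was -1.92 for relaxed and -4.20 for top lists. Leaving out each replicate in turn gave -3.82 to -2.35 for relaxed and -6.10 to -4.43 for top lists. Windows 0.5 Mb further out gave -2.45 for relaxed and -3.40 for top lists, against -3.18 and -5.47, and the 10000 strongest peaks gave a percentile difference of -5.50, against -11.0. The difference in TSS-proximal share, -0.473 points, became 2.12 with windows 0.5 Mb deeper, 1.31 with windows 0.5 Mb further out, 5.97 with the 10000 strongest peaks and 2.11 with a TSS within 200 bp, and ran from -9.75 without replicate 3 to 4.93 without replicate 2, with 3.40 without replicate 1. With windows 0.5 Mb further out, 4.21% of members were in all 3 replicates, against 13.9% of the rest. An optimal peak was in 2.01% of these members, against 6.69% of the rest. The cause of these shifts was not tested. With only 2 replicates required, 3.21% of members were in both without replicate 1, against 21.4% of the rest. The shares were 9.15% against 28.0% without replicate 2, and 16.8% against 28.3% without replicate 3. Among members of at least 90% unique words, a limit added after the data were seen, 2.66% were in all 3 replicates. In the rest 13.9% of such regions were. An optimal peak was in 0.399% of these members, against 6.67% of such regions in the rest. No paired analysis was possible because there is 1 group. The exact permutation tests cannot go below p = 0.25 with 3 replicates or 0.5 with 2, so they say nothing on stability. The unknown depth limits what an absent peak means.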
